A study of Mus musculus with 7 samples.

Results

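Macrophages present antigen to T cells together with surface proteins that stimulate or restrain them, and the mRNAs of 9 such genes were followed in bone-marrow-derived macrophages (BMDMs). The genes were taken by symbol. Cd80, Cd86, Cd40 and Icosl are costimulatory, Cd83 and Cd69 mark activated cells, and Cd274, Pdcd1lg2 and Havcr2 belong to inhibitory checkpoints. Cd40, Cd69 and Havcr2 encode receptors and the other genes ligands or related surface molecules. All 9 were found among the 48440 genes of the LPS table and among the 55352 genes of the AAV table.

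T cells need antigen recognition and a costimulatory signal, which CD80 and CD86 deliver through CD28. CTLA-4 competes for the same ligands, PD-L1 (Cd274) and PD-L2 (Pdcd1lg2) restrain T cells through PD-1, and the CD40 receptor lets helper T cells activate the macrophage in turn. Lipopolysaccharide (LPS), the endotoxin of Gram-negative bacteria, acts on macrophages through TLR4 and is known to switch on NF-κB and interferon-driven genes, among which several of these surface molecules are counted.

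The BMDMs were grown from wild-type mouse bone marrow with M-CSF at 20 ng per mL. In the LPS experiment they were left without treatment (0 h) or received LPS (100 ng per mL) over 2 h or 4 h, and each time point is 1 library. In the AAV experiment they carried an adeno-associated virus for 48 h that delivered GFP (AAV-GFP, the control, genotype WT) or Shisa3 (AAV-Shisa3, labelled Shisa3 overexpression), with 2 samples per group and no LPS. Both vectors used the CAG promoter, which is known to be broadly active. The study's methods give mice of both sexes aged 6 to 12 weeks for its experiments in general, and no source says whether the replicates came from separate cultures, so the p-values measure only the spread between these samples.

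Each LPS value was the reads of a gene over a factor of its library, and the libraries held 15588502 (0 h), 7263258 (2 h) and 32659392 (4 h) reads, so that low genes were least precise at 2 h. The AAV table was read as TPM, a share of transcripts corrected for length, and its depth is unknown. Shisa3 itself measured 7.88 and 10.85 TPM under AAV-GFP against 12.31 and 17.81 TPM under AAV-Shisa3, without overlap. The log2 difference was 0.63 (SE 0.22, unadjusted p = 0.0293 from limma), and it was short of the threshold of 0.05 after adjustment (adjusted p = 0.138). The study separately reported that AAV-Shisa3 transduction overexpressed Shisa3 in BMDMs, with mRNA and protein assays of its own. Macrophage markers were abundant (8 genes, summed to between 34054 and 37144 TPM) and 0 of the 8 passed the test in either direction (2.23% of all genes were higher and 4.10% lower), where without adjustment 1 higher and 1 lower gene had p under 0.05. The T cell genes Cd3d, Cd3e, Cd3g and Cd2 were listed at 0 TPM in the 4 AAV samples and had at most 1 read per LPS library. The other T cell genes of that list were Lck, with 0.16 to 0.82 TPM and 1, 82 and 524 reads at 0, 2 and 4 h, and Cd8a, with 0.05 to 0.14 TPM and 2, 0 and 12 reads. Of 6 dendritic cell genes 1, Ccr7, was tested, and the 6 summed to 3.32 and 4.2 TPM under AAV-GFP and 2.50 and 3.10 TPM under AAV-Shisa3, with Cd209a at 0. In the LPS libraries their summed value was 65.0, 133 and 298 at 0, 2 and 4 h, most of it Ccr7 at 4 h, and that of 9 neutrophil genes was 4745, 9982 and 7046, or 1264, 1389 and 1238 in computed TPM. By the 2-fold mark 5 of these 9 genes were higher at 2 h in the deposited values (20.5% of all genes) and 1 with equal library totals (13.7%). At 4 h 0 were higher on either scale (22.2% and 13.1%), and 2 (23.6%) and 4 (43.9%) were lower. The part of these cells in the LPS differences was not tested. Of the B cell genes 1 of 5 was tested, Cd79b, at 13.47 and 11.43 TPM under AAV-GFP and, below both, 9.35 and 7.88 TPM under AAV-Shisa3 (log2 difference -0.48, unadjusted p = 0.0151 and adjusted p = 0.0999 from limma), and under LPS it was 4.78-fold lower at 4 h; its part in the results was not tested. In bulk RNA, fewer cells of a type and less RNA per cell cannot be told apart.

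The start regions of 5 of the genes matched a promoter in RefSeq (GRCm38.p6), namely Cd80, Icosl, Cd274, Pdcd1lg2 and Havcr2. The 3 checkpoint genes are shown because Cd274 and Pdcd1lg2 were higher and Havcr2 lower after LPS. Each run covers 250 bases before the start and 50 after it, on the plus strand, at chr19:29367188-29367487 for Cd274, chr19:29410669-29410968 for Pdcd1lg2 and chr11:46454681-46454980 for Havcr2. Capitals mark the matches to 4 motifs searched on both strands: the NF-κB consensus, the AP-1 motif TGANTCA, the interferon-stimulated element GAAANNGAAA and the gamma-activated site TTCNNNGAA.
Cd274: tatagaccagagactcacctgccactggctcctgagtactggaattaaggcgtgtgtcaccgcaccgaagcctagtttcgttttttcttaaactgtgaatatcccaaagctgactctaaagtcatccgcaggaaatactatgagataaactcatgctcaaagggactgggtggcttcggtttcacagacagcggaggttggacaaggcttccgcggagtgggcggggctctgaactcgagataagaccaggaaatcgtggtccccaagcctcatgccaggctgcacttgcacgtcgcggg
Pdcd1lg2: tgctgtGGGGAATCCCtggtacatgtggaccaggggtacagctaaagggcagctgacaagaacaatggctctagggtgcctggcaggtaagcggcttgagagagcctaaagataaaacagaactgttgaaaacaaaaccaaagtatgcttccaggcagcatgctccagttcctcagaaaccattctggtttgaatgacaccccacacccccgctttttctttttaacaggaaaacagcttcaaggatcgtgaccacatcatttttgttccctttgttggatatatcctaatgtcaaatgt
Havcr2: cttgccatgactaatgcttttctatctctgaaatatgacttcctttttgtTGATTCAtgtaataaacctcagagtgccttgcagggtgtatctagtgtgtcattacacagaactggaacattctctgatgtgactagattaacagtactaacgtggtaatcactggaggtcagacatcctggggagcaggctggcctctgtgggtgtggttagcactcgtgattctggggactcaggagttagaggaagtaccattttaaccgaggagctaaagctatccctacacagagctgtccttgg
The Cd274 run held no match to these letters, 15 CpG dinucleotides and 52.7% G and C. Pdcd1lg2 held an NF-κB match (GGGGAATCCC, first base 244 before the start) with 3 CpG. Havcr2 held an AP-1 match (TGATTCA, 200 before the start), also with 3 CpG. Icosl had an NF-κB match on the minus strand (GGGGAGCTCC, 111 before the start) in a run with 26 CpG, and Cd80 an AP-1 match (TGATTCA, 42 before the start). The RefSeq start of Cd80 lies 3372 bases inside the GENCODE gene, downstream of the gene start given with its values, and the starts of the other 4 genes lie within 66 bases of the GENCODE starts. Among all 32817 promoters of this length, 8.46% held the NF-κB consensus, 7.81% AP-1, 3.43% the interferon-stimulated element and 8.29% the gamma-activated site, and the median number of CpG was 7. A match describes letters in this window, not a bound site.

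Most of these genes were higher after LPS, with different time courses. At 2 h 7 of the 9 genes were at least 2-fold higher than at 0 h on log2(value + 1), where 20.5% of all 17854 genes kept were, and 0 were at least 2-fold lower, against 24.7%. Among the 7 was Pdcd1lg2, which rested on 3 reads at 2 h against 2 at 0 h. At 4 h 7 were higher (22.2% of all genes) and 1, Havcr2, was lower (23.6%). Their median log2 difference was 2.21 at 2 h and 2.96 at 4 h, and that of all genes was -0.05 and -0.04. In the deposited values the highest level fell at 4 h in 5 genes, at 2 h in Cd80, Cd83 and Icosl, and at 0 h in Havcr2. Those of Cd69 and Cd80 depended on the scale: per library total Cd69 was highest at 2 h, and in computed TPM Cd80 was highest at 0 h (5.01, 4.62 and 3.80). Since each time is a lone library, the differences have no replicate check, and the intervals below cover counting error only. Scaling to equal library totals instead of the deposited factors moved the median of all genes to -0.68 at 2 h and -0.81 at 4 h, so values under it are given where they change a direction or a call. Under that scaling 7 of the 9 were at least 2-fold higher at 2 h (13.7% of all genes) and 1 lower (39.9%), and 6 were higher at 4 h (13.1%) and 1 lower (43.9%).

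**Figure D1:**
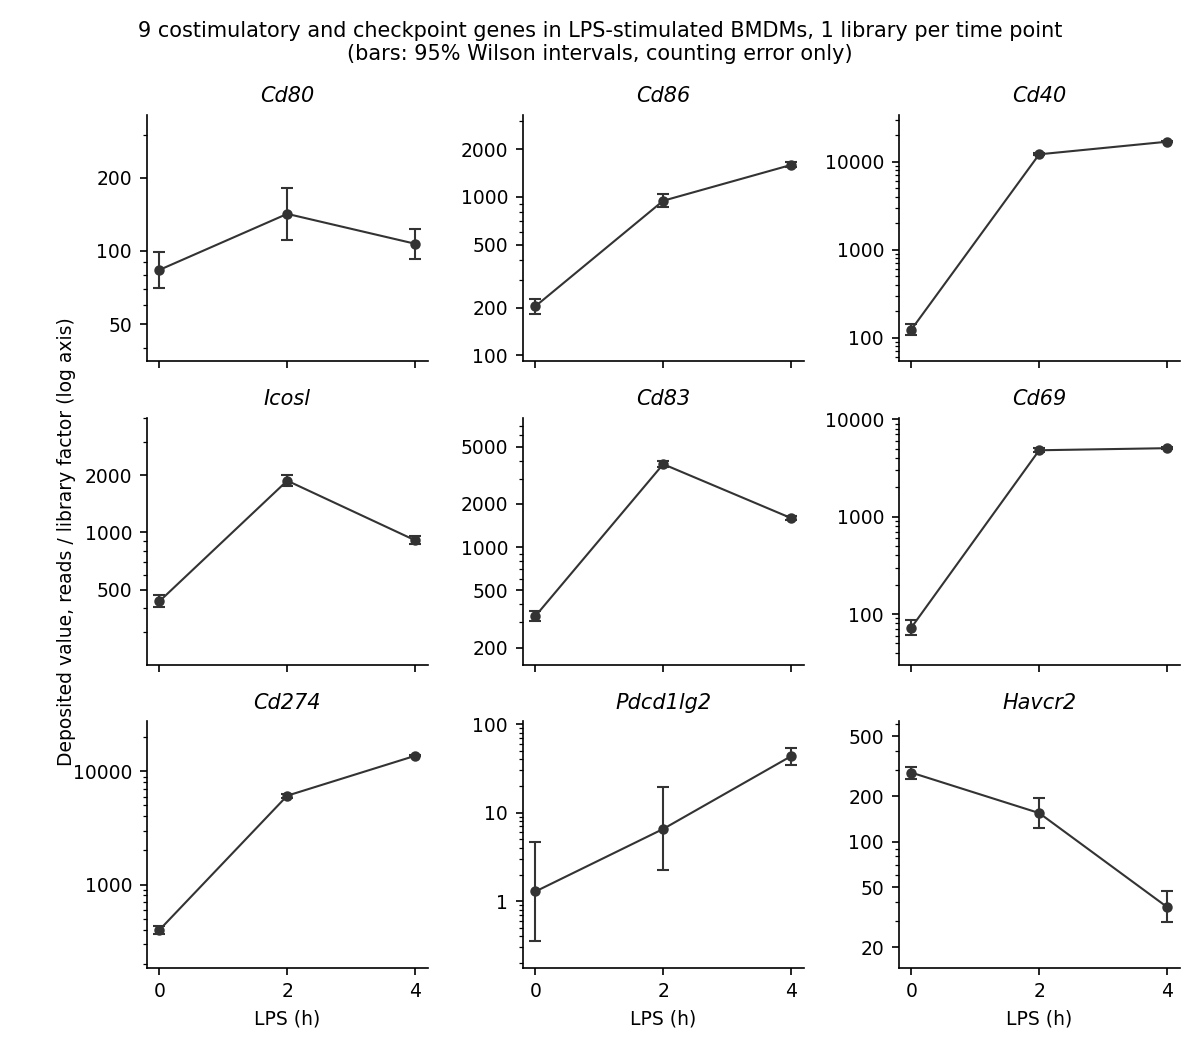
Deposited value (reads divided by a library factor, log axis) of each gene against hours of LPS, with 1 library per point and bars for 95% Wilson counting intervals. On this scale Cd86, Cd40, Cd69, Cd274 and Pdcd1lg2 were highest at 4 h and Cd80, Cd83 and Icosl at 2 h (with equal totals Cd69 was highest at 2 h), and Havcr2 went from 288 at 0 h to 37.0 at 4 h.

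Among the costimulatory genes, Cd40 had the largest difference from 0 h. Cd40 (chromosome 2 of GRCm38, 165055627 to 165072948, plus strand) encodes the receptor for CD40 ligand on helper T cells. Its deposited value was 124 at 0 h, 12095 at 2 h and 16819 at 4 h, from 192, 5539 and 30950 reads. This was 97.9-fold higher at 2 h and 136-fold higher at 4 h (95% interval 118 to 158), or 76.9-fold with equal totals. On the length-corrected scale Cd40 went from 8.04 to 649 computed TPM and from the middle of the genes kept (percentile 53.0) to percentile 99.1.

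Cd86 and Cd80, the ligands of CD28 and CTLA-4, lie on the same chromosome and behaved differently. Cd86 (chromosome 16, 36603869 to 36666081, minus strand) had values of 204, 946 and 1592, which was 4.64-fold above 0 h at 2 h and 7.81-fold at 4 h (6.95 to 8.79). Cd80 (chromosome 16, 38455561 to 38496335, plus strand) had values of 83.6, 142 and 107 from 130, 65 and 197 reads. Cd80 was under the 2-fold mark in the deposited values, at 1.70-fold (1.24 to 2.30) and 1.28-fold (1.02 to 1.61), but with each library centred on its median the log2 difference at 2 h was 1.07, past the mark. The direction of the small difference at 4 h depended on the scaling, with a log2 difference of 0.35 in the deposited values and -0.46 with equal totals.

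Icosl (chromosome 10, 78069302 to 78083913, plus strand), the ligand of the T cell receptor ICOS, was an early gene. Its values were 434, 1874 and 910, 4.32-fold (3.90 to 4.78) and 2.10-fold (1.91 to 2.29) above 0 h. At 4 h it lost the 2-fold mark with equal totals, at 1.18-fold.

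The activation markers also split into an early and a sustained gene. Cd83 (chromosome 13, 43784775 to 43803132, plus strand), a marker of mature antigen-presenting cells, had values of 331, 3786 and 1595. It was 11.4-fold higher at 2 h (10.4 to 12.6) and 4.81-fold at 4 h (4.38 to 5.30), and its 4 h value was 0.421 of the 2 h value. Cd69 (chromosome 6, 129267325 to 129275436, minus strand), an early activation receptor that holds cells in tissue, had values of 72.7, 4798 and 5040. This was 66.0-fold above 0 h at 2 h and 69.3-fold at 4 h (57.6 to 84.2), and the 4 h value was 1.05 of the 2 h value (1.00 to 1.10) in the deposited values and 0.939 of it (0.896 to 0.984) with equal totals.

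PD-L1 and PD-L2 are encoded side by side, with 22.8 kb between the end of Cd274 (chromosome 19, 29367455 to 29388095, plus strand) and the start of Pdcd1lg2 (29410919 to 29471161, plus strand). Cd274 had values of 397, 6101 and 13735, 15.4-fold (14.1 to 16.8) and 34.6-fold (31.9 to 37.5) above 0 h. Pdcd1lg2 had values of 1.29, 6.55 and 43.5, from only 2, 3 and 80 reads. Its 4 h ratio of 33.8 has an interval of 9.05 to 284, and its 2 h ratio of 5.09 one of 0.583 to 61.0, so that a rise at 2 h was not detectable at this depth. The neighbours thus had close point ratios at 4 h from starting levels far apart, 24.3 computed TPM for Cd274 and 0.145 for Pdcd1lg2. These were the only 2 of the 9 genes at least 2-fold higher at 4 h than at 2 h (17.9% of all genes), while Cd83, Icosl and Havcr2 were at least 2-fold lower (15.2%).

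Havcr2 (chromosome 11, 46454935 to 46481255, plus strand) encodes TIM-3, an inhibitory receptor carried by T cells and by macrophages and dendritic cells. Its value went down from 288 at 0 h to 155 at 2 h and 37.0 at 4 h, with 447, 71 and 68 reads. At 4 h it was 7.78-fold lower than at 0 h (6.02 to 10.2). At 2 h the log2 difference was -0.89, short of the 2-fold mark, and with equal totals it was -1.55 and passed it. In computed TPM Havcr2 (23.4) was close to Cd274 (24.3) at 0 h and far below it at 4 h (1.79 against 498).

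In the AAV experiment 8 of the 9 genes passed the filter of a mean of at least 1 TPM and were tested. Cd86, Cd40 and Cd69 were higher with AAV-Shisa3 (3 genes, where 2.23% of all 11218 genes tested were), 0 genes were lower (4.10% of all), also at an unadjusted p under 0.05, and 5 did not pass the test. Their median log2 difference was 0.43, against -0.10 over all genes tested. The AAV-Shisa3 samples both exceeded both controls in 6 of the 8 (18.2% of all genes), and were both below them in 0 (41.2%). The study displayed genes related to inflammatory (M1) macrophages from these same samples and reported most of them as higher. The directions here are therefore not independent evidence. For CD86 protein, the study separately reported a higher level by flow cytometry in AAV-Shisa3 BMDMs. All values in this comparison are TPM, and log2 differences are on log2(TPM + 1), which understates the change of low genes.

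**Figure D2:**
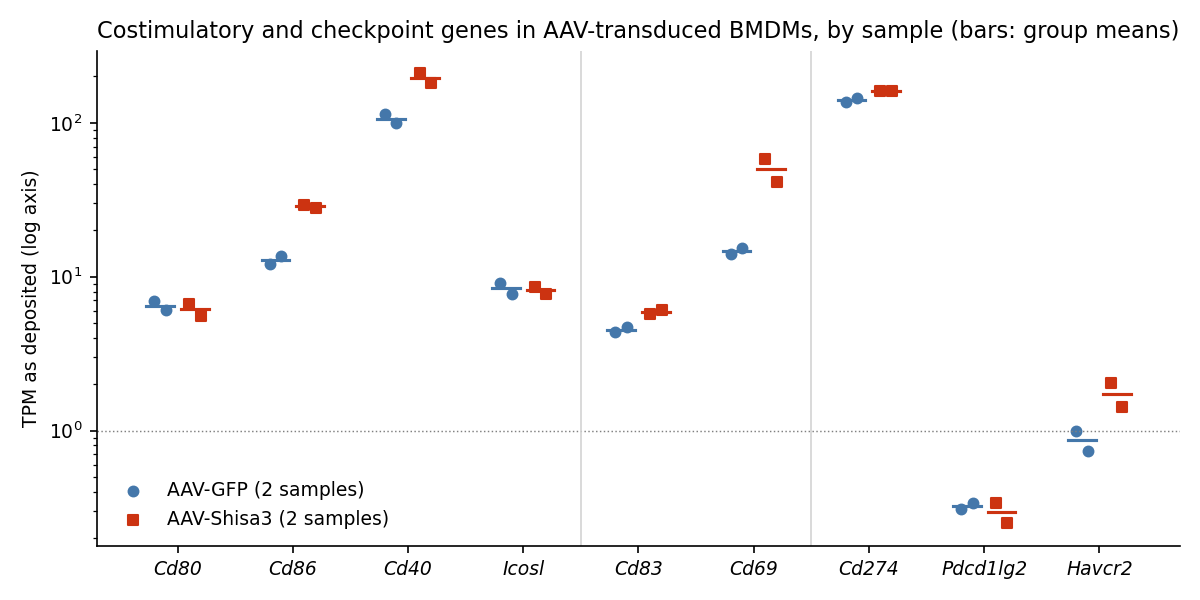
TPM (log axis) of the 9 genes in the 2 AAV-GFP and the 2 AAV-Shisa3 samples, with points for samples and bars for group means. The AAV-Shisa3 samples of Cd86, Cd40 and Cd69 lie clearly above the AAV-GFP samples, and those of Cd80 and Icosl overlap with them.

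Cd69 differed the most. It measured 14.07 and 15.34 TPM under AAV-GFP against 58.52 and 41.40 TPM under AAV-Shisa3. The groups did not overlap, and AAV-Shisa3 replicate 1 was the higher of its pair. The ratio of means was 3.40 and the log2 difference 1.68 (SE 0.17, adjusted p = 0.0174), rank 24 of 11218 from the top.

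Cd86 measured 12.12 and 13.63 TPM under AAV-GFP against 29.38 and 27.83 TPM under AAV-Shisa3. The replicates of each group were close and the groups far apart. Its ratio of means was 2.22 and its log2 difference 1.10 (SE 0.11, adjusted p = 0.0168), rank 83. Cd80, the other CD28 ligand, measured 6.95 and 6.04 TPM under AAV-GFP against 6.68 and 5.59 TPM under AAV-Shisa3. These groups overlapped, and the log2 difference was -0.07 (95% interval -0.44 to 0.30, adjusted p = 0.783).

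Cd40 measured 113 and 99.6 TPM under AAV-GFP against 210 and 180 TPM under AAV-Shisa3, again without overlap. The ratio of means was 1.83 and the log2 difference 0.86 (SE 0.11, adjusted p = 0.0216), rank 152. Icosl had 9.08 and 7.71 TPM against 8.57 and 7.77 TPM, which overlapped, with a log2 difference of -0.03 (-0.37 to 0.30, adjusted p = 0.895). Cd86 and Cd40 thus passed the threshold while Cd80 and Icosl overlapped between the groups.

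The remaining genes were less clear. Cd83 measured 4.35 and 4.70 TPM under AAV-GFP against 5.70 and 6.11 TPM under AAV-Shisa3, a log2 difference of 0.32 (-0.02 to 0.66, adjusted p = 0.194). Cd274 had 136 and 145 TPM against 161 and 162 TPM, a log2 difference of 0.20 (0.02 to 0.38), with an unadjusted p of 0.0365 and an adjusted p of 0.154. In both genes the groups did not overlap and the difference did not pass the test. Havcr2 had 1.00 and 0.74 TPM against 2.05 and 1.43 TPM (0.55, -0.00 to 1.09, adjusted p = 0.179), which lies near the filter. Its groups did not overlap either, with a ratio of means of 2.00. In limma with a pseudocount of 0.1 its log2 difference was 0.92, also short of the threshold (adjusted p = 0.192). Pdcd1lg2 was not tested, at 0.31 and 0.34 TPM against 0.34 and 0.25 TPM.

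The 3 calls did not hold in every fit. Without the trend in limma's variance and with no filter on low values 0 of the genes passed, although either fit had 5 higher genes with an unadjusted p under 0.05. Without AAV-GFP replicate 1, AAV-GFP replicate 2 or AAV-Shisa3 replicate 1 again 0 passed, and without AAV-Shisa3 replicate 2 only Cd69 did. A fit without 1 sample leaves a lone sample in a group, takes its spread from the other group and cannot decide these calls. As the groups of these 3 genes did not overlap, leaving out 1 sample could not change a direction. With each sample left out in turn the log2 difference lay between 1.43 and 1.92 for Cd69. It lay between 1.02 and 1.17 for Cd86, and between 0.75 and 0.97 for Cd40. Over all alternatives the adjusted p ranged from 0.00870 to 0.173 for Cd69, from 0.00903 to 0.170 for Cd86 and from 0.0105 to 0.180 for Cd40.

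Neutrophil genes differed in the same direction. Of the 9 listed 8 were tested, and all 8 were above both controls in both AAV-Shisa3 samples (18.2% of all genes were), with a median log2 difference of 0.81. Past the threshold were 2 (2.23% of all genes), the granule protein genes Camp (1.14, adjusted p = 0.0422) and Ngp (1.02, adjusted p = 0.0378). Each of these calls held in 5 of 10 alternatives, with adjusted p from 0.0261 to 0.221 for Camp and from 0.0227 to 0.204 for Ngp. The 9 genes summed to 593 and 565 TPM with AAV-GFP and to 1092 and 683 TPM with AAV-Shisa3, and the neutrophil surface marker Ly6g was at most at 0.29 TPM. The higher sum was in AAV-Shisa3 replicate 1, which also had more of all 3 called genes, with 58.52 against 41.40 TPM of Cd69, 210 against 180 TPM of Cd40 and 29.38 against 27.83 TPM of Cd86. Without that sample the log2 differences of Cd69, Cd86 and Cd40 were 1.43, 1.06 and 0.75, on an estimate that assumes the lone sample varies like the AAV-GFP samples. The part of neutrophil RNA in these differences was not tested further.

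The order of the levels shows where the groups differed. With AAV-GFP the genes followed from high to low as Cd274, Cd40, Cd69, Cd86, Icosl, Cd80, Cd83, Havcr2 and Pdcd1lg2, and no neighbours in that order overlapped between samples. With AAV-Shisa3, Cd40 (210 and 180 TPM) stood above Cd274 (161 and 162 TPM), and Cd80 (6.68 and 5.59 TPM) overlapped with Cd83 (5.70 and 6.11 TPM). Summed by role, the costimulatory genes measured 142 and 127 TPM under AAV-GFP against 255 and 221 TPM under AAV-Shisa3, mostly Cd40. The 3 checkpoint genes summed to 137 and 146 TPM against 164 and 164 TPM, nearly all Cd274.

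Levels before LPS and in the control vector group were not alike. Cd86 had 12.4 computed TPM at 0 h, within the range of its AAV-GFP samples (12.12 and 13.63 TPM), and Cd80 had 5.01 against 6.95 and 6.04 TPM. Cd40 had 8.04 computed TPM at 0 h against 113 and 99.6 TPM with AAV-GFP, and Cd274 24.3 against 136 and 145 TPM. In the other direction, Havcr2 had 23.4 at 0 h against 1.00 and 0.74 TPM, and Cd83 28.6 against 4.35 and 4.70 TPM. The tables were made and normalized separately, so these levels were not tested against each other.

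The balance of CD28 ligands to PD-L1 within a library does not depend on library scaling. The Cd86 to Cd274 ratio in TPM was 0.0890 and 0.0937 with AAV-GFP and 0.182 and 0.172 with AAV-Shisa3. The samples did not overlap, with a difference of 0.90 in log2, for which, as for the other ratios, 1 was added to each TPM. In an exact two-sided permutation test this gave p = 0.333, the smallest that 2 against 2 samples allow, and 0.417 adjusted over the 5 pairs compared. In the LPS libraries the same ratio went the other way. It was 0.508 (0.443 to 0.583) without LPS, 0.153 (0.138 to 0.170) after 2 h and 0.115 (0.110 to 0.119) after 4 h.

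The Cd80 to Cd86 ratio went down in both experiments. It was 0.573 and 0.443 with AAV-GFP against 0.227 and 0.201 with AAV-Shisa3, a log2 difference of -1.17 (exact p = 0.333, adjusted 0.417). Under LPS it was 0.405, 0.148 and 0.0665 at 0, 2 and 4 h. The Cd80 to Cd274 ratio differed less with AAV-Shisa3 (0.0511 and 0.0415 against 0.0414 and 0.0345, log2 difference -0.27) than under LPS, where it went from 0.206 to 0.00762 at 4 h. Cd40 to Cd86 was 9.36 and 7.31 against 7.14 and 6.47 in the AAV samples, without overlap. On log2(TPM + 1), where the samples overlap, the difference was -0.23 (exact p = 0.667), and with a pseudocount of 0.1 it was -0.28 (exact p = 0.333). Under LPS this ratio went from 0.651 to 13.7 at 2 h and 11.4 at 4 h. Cd274 exceeded Pdcd1lg2 in every library, by 428-fold to 648-fold in the AAV samples and by 167-fold (46.0 to 1382) at 0 h. The AAV ratios rest on Pdcd1lg2 at 0.25 to 0.34 TPM, below the filter, so their size is imprecise.

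**Figure D3:**
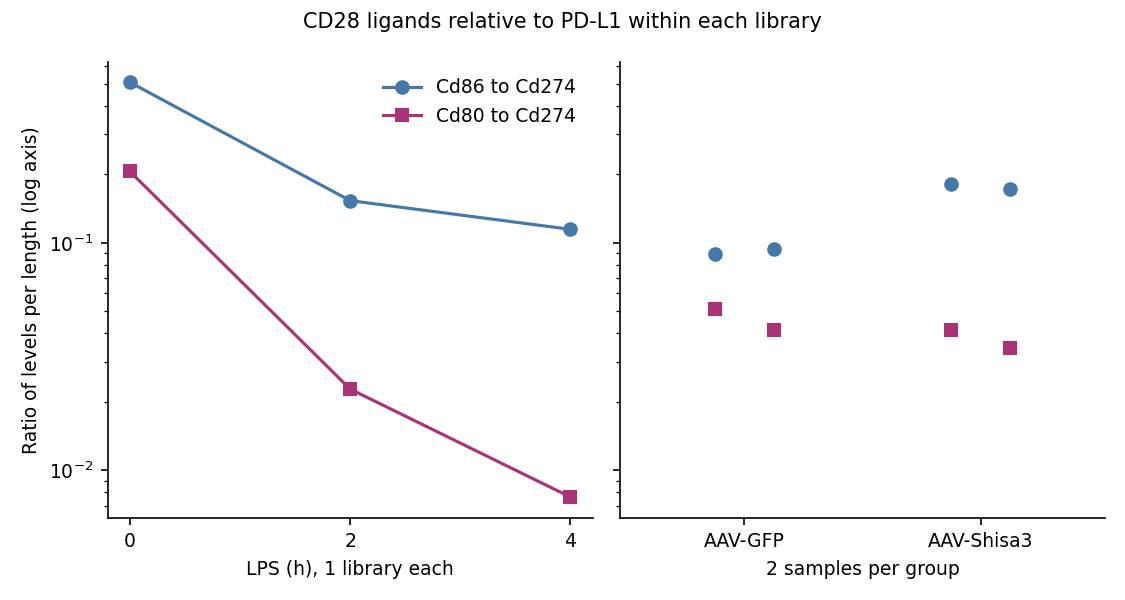
Ratio of Cd86 and of Cd80 to Cd274 within each library (computed or deposited TPM, log axis), for the 3 LPS libraries and for the 4 AAV samples, with 1 point per library. The Cd86 ratio went from 0.508 to 0.115 over 4 h of LPS and was higher in the AAV-Shisa3 samples (0.182 and 0.172) than in the AAV-GFP samples (0.0890 and 0.0937).

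Set side by side, the 3 genes past the AAV threshold were also higher with LPS. Cd40, Cd69 and Cd86 were at least 2-fold higher at 4 h of LPS and past the threshold with AAV-Shisa3. Cd274, with a log2 difference of 5.11 at 4 h of LPS, had 0.20 with AAV-Shisa3. Icosl and Cd83 were at least 2-fold higher at 2 h of LPS and did not pass the AAV test. Havcr2 was -2.93 at 4 h of LPS and 0.55 with AAV-Shisa3, the latter short of the threshold. No sample combined LPS with AAV, so the effects were not compared by a test.

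**Figure D4:**
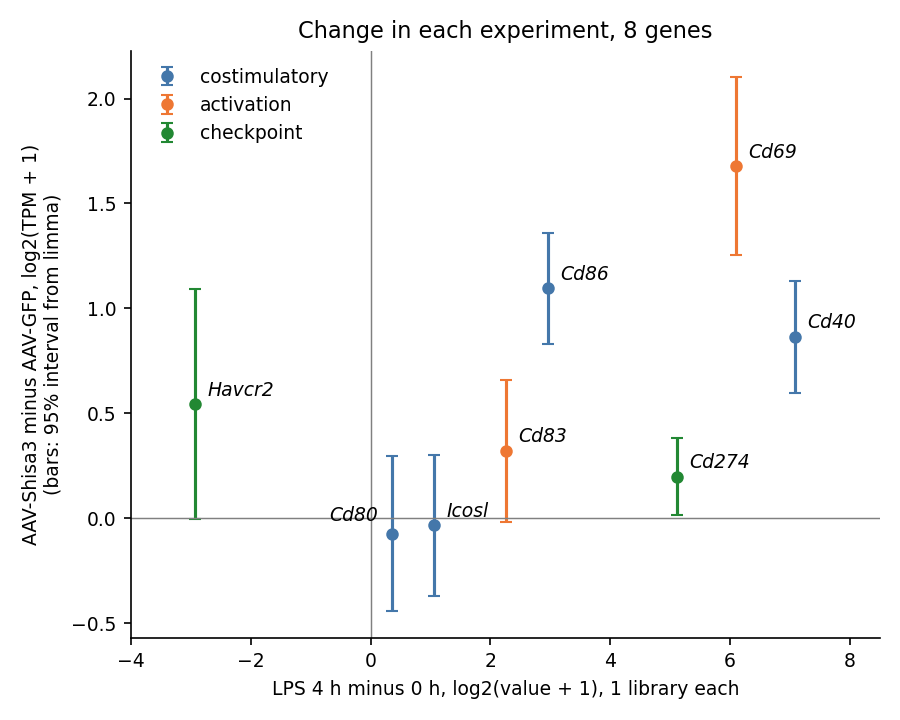
Log2 difference with AAV-Shisa3 (vertical, bars 95% intervals from limma) against the log2 difference at 4 h of LPS (horizontal, 1 library each) for the 8 genes tested in the AAV samples (LPS differences have no test). Cd69 is highest on the vertical axis at 1.68, Cd40 farthest to the right at 7.08, and Cd274 is far to the right at 5.11 but near 0 vertically.

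Other genes of these pathways, from 5 lists with 39 genes, gave 1 gene higher and 1 lower of the 25 tested in the AAV samples, where 2.23% and 4.10% of all genes were called. Their median log2 difference was -0.18, against -0.10 over all genes, and in 13 of the 25 the AAV-Shisa3 samples were both below the AAV-GFP samples (41.2% of all genes). The 1 lower gene was Vsir, which encodes VISTA, a B7-related checkpoint protein. It measured 171 and 172 TPM under AAV-GFP against 104 and 94.7 TPM under AAV-Shisa3, a log2 difference of -0.78 (SE 0.08, adjusted p = 0.0174). Under LPS its value went from 9194 to 4660 and 1753, 5.24-fold lower at 4 h. The 1 higher gene was Lilrb4a, an inhibitory receptor of myeloid cells, with 225 and 221 TPM against 330 and 307 TPM (0.51, SE 0.07, adjusted p = 0.0242), and it was 3.67-fold higher at 4 h of LPS. Each of these calls held in 4 of 10 alternatives, with adjusted p from 0.00903 to 0.173 for Vsir and from 0.0153 to 0.187 for Lilrb4a. Cd276, another B7 family gene, was not tested, at 0.25 and 0.44 TPM against 1.04 and 0.65 TPM.

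Of the 35 genes of these lists kept in the LPS table, 21 were at least 2-fold higher after 2 h (20.5% of all genes) and 21 after 4 h (22.2%), and 5 (24.7%) and 3 (23.6%) were at least 2-fold lower. With equal library totals 15 (13.7%) and 17 (13.1%) were higher, and 6 (39.9%) and 6 (43.9%) lower. Ligands of the TNF superfamily that costimulate T cells included 5 of 6 at least 2-fold higher after 2 h (20.5% of all genes), of which Cd70 rested on 1 read at 2 h and 0 reads at 0 h. The remaining gene, Tnfsf8, was at least 2-fold lower at 2 h (24.7% of all genes), with 7 reads against 51 at 0 h. Tnfsf9, the ligand of 4-1BB, was 130-fold above 0 h at 2 h and 50.1-fold at 4 h, and in the AAV samples it had 23.8 and 23.5 TPM against 21.1 and 24.7 TPM (log2 difference -0.05, adjusted p = 0.801). Tnfsf15 was 61.2-fold higher at 4 h. Among other checkpoint genes 10 of 14 were at least 2-fold higher at 4 h (22.2% of all genes) and 0 lower (23.6%), and with equal totals 8 were higher (13.1%) and 2 lower (43.9%). Examples were Cd200, 74.7-fold from 10 reads, and Pilra, 11.8-fold. Of these, 13 were tested in the AAV samples and 1 was higher (2.23% of all genes) and 0 lower (4.10%), where 4 were lower before adjustment (p under 0.05). Cd47, the signal that restrains phagocytosis, had 247 and 237 TPM against 199 and 192 TPM (-0.30, adjusted p = 0.0628).

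Genes downstream of CD40 did not pass the AAV test in any of 8 cases (2.23% of all genes were higher and 4.10% lower; without adjustment, 0 of the 8 were higher and 2 lower with p under 0.05). The lowest was Map3k14, the NF-κB inducing kinase of the non-canonical pathway, with 9.37 and 9.34 TPM against 5.44 and 6.36 TPM (-0.59, adjusted p = 0.0586), a gene that was also 5.37-fold lower at 4 h of LPS. Traf1, an adaptor of TNF receptors, was 56.7-fold higher at 4 h of LPS and had a log2 difference of -0.14 in the AAV samples (adjusted p = 0.401). Of genes that set the surface level of these proteins, Marchf1, which directs CD86 to degradation, was 5.35-fold higher at 4 h of LPS, and Cmtm6, which stabilises PD-L1, 3.86-fold. The related Cmtm4 was 2.82-fold lower, and Marchf8 was 0.874 of its 0 h value (0.494 with equal totals). In the AAV samples Cmtm6 had a log2 difference of 0.08 (adjusted p = 0.630) and Cmtm4 of -0.18 (adjusted p = 0.495). Surface protein was not measured in these files.

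**Figure D5:**
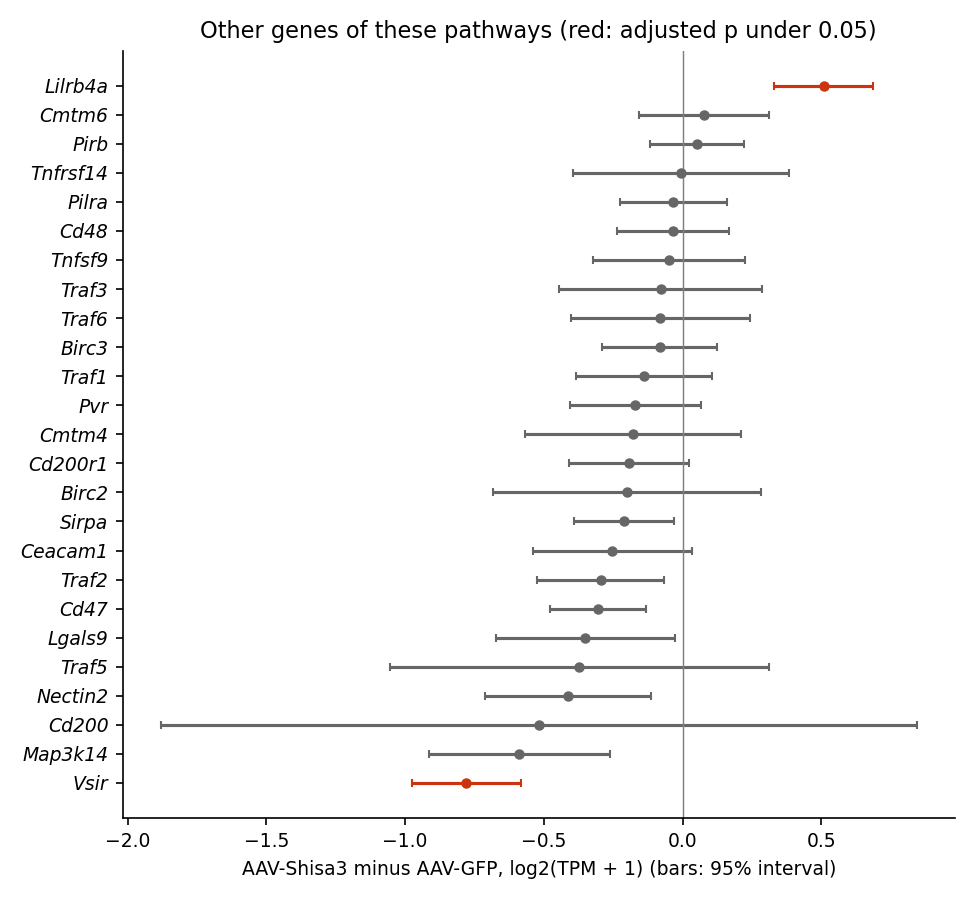
Log2 difference with AAV-Shisa3 against AAV-GFP on log2(TPM + 1) for the other genes of the pathways that were tested, with bars for 95% intervals from limma and red for an adjusted p under 0.05. Vsir at -0.78 and Lilrb4a at 0.51 are marked.

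The genes whose differences were most like each member's were found by Euclidean distance over 3 log2 differences (LPS 2 h, LPS 4 h and AAV), among 10529 genes that passed both filters. Nearest to Cd40 were Hcar2 (distance 0.23), Gbp5 and Oasl1. For Cd86 they were Gm43215 (0.43), Themis2 and Spryd7, and for Cd69 Htra4 (0.81), Cmpk2 and Ccl3. Cd69 thus had the most distant neighbours of the 8 genes. For Cd274 the nearest were A530040E14Rik (0.22), Igtp and Ifih1, for Cd83 Dusp5 (0.19), Relb and Hk2, and for Icosl Itpkb (0.21), Gpr132 and Cln3. Cd80 lay among genes with small differences, Cdc37 (0.04), Aup1 and Nap1l4. For Havcr2, lower with LPS and above 0 with AAV-Shisa3, they were Tmem37 (0.23), Rps2-ps6 and Cd300a, and the pseudogene Rps2-ps6 may share reads with its parent gene.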

How the data were processed

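RNA was sequenced from 7 BMDM samples, 3 of the LPS experiment and 4 of the AAV experiment. For the LPS libraries the authors deposited a signal per gene, the reads over a factor of the library, and whole reads were recovered within a tolerance of 0.01. For the AAV samples the deposited values sum to between 999778 and 999818 per sample and were read as TPM, a unit inferred from the values. The submitters' processing notes name mm9, while 99.2% of the gene identifiers of the LPS table matched GENCODE M21 on GRCm38, whose positions and exonic lengths were used here. The aligner and the study's test for these tables are not given in the sources used here. RNA input is stated differently in the labels and in the paper.

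LPS differences were taken on log2(value + 1) for genes whose mean was 1 or more, with a 2-fold mark and no test. Exact 95% intervals of ratios and Wilson intervals of levels cover counting error only. TPM of the LPS libraries were computed from reads and exonic lengths. AAV samples were compared on log2(TPM + 1) by limma with a trended prior variance, for all genes whose mean was 1 or more, and p-values were adjusted by Benjamini-Hochberg (threshold 0.05). The design allowed for counts or normalized values, and the latter applied. The genes, the lists and the tests were chosen with earlier results of these data known. Named genes were the 9 genes, listed genes past the AAV threshold or with the largest changes at 4 h, and the 3 nearest genes of each. Other listed genes in the text (Cd276, Cd47, Cd70 and Marchf8 among them) were named after their values were seen where they fall outside that rule. Symbols of 2 March genes were unusable in the AAV table, and of 2 LPS rows of Itgam the higher was used. The limma script was tested on simulated data. R 4.3.3, limma 3.58.1, edgeR 4.0.16 (TMM factors only), Python 3.11.15, matplotlib 3.10.9, pandas 2.3.3, numpy 2.4.6 and scipy 1.17.1 were used.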

Additional observations from a re-analysis of the deposited data

How the results depend on the processing

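With 1 LPS library per time point and 2 AAV samples per group, replicate error is unknown for LPS and poorly known for AAV. The number of the 9 genes higher with AAV-Shisa3 was 3, and it was 0 without the trend, 0 with no filter (20300 genes above 0 in at least 1 sample) and 0 to 1 with each sample left out. All genes past the threshold were 250 higher and 460 lower, against 1 and 4 without the trend, 0 and 0 with no filter, 410 and 230 after centring on sample medians, and 0 to 27 and 0 to 7 with a sample left out. The log2 difference of Cd80 turned from -0.07 to 0.043 after centring and lay between -0.18 and 0.038 with each sample left out, above 0 without AAV-GFP replicate 1 or AAV-Shisa3 replicate 2. That of Icosl turned from -0.03 to 0.083 after centring and lay between -0.14 and 0.073, above 0 in the same fits. With equal library totals 1 gene, Havcr2, was at least 2-fold lower at 2 h of LPS, where the deposited values gave 0, and 6 instead of 7 were higher at 4 h, without Icosl. At 2 h 8 instead of 7 were higher after centring each library, with Cd80 added, and 6 with a pseudocount of 5, without Pdcd1lg2, where of all 17854 genes 4808 and 2673 were higher, against 3668 in the deposited values with a pseudocount of 1. The cause of these changes was not tested.

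The samples share only a replicate number, with a correlation of 0.188 between same-numbered deviations. With the replicate block the number of the 9 genes higher stayed at 3, and all genes past the threshold were 424 higher and 851 lower.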

Other observations

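The T cell partners of these proteins, 4 receptors and the CD40 ligand, were examined as a list of 5 genes, Cd28, Ctla4, Icos, Pdcd1 and Cd40lg, of which 0 passed the filter in the AAV samples. In the LPS experiment 2 of the 5 were kept, Cd28 and Icos, and both were at least 2-fold lower at 4 h (23.6% of all genes). Icos rested on 15, 5 and 4 reads at 0, 2 and 4 h. Cd28 had 3904, 193 and 154 reads, and its deposited value was 30.0-fold lower at 4 h than at 0 h. In the AAV samples Cd28 had 0.35 to 0.52 TPM. Reads of Ctla4, Pdcd1 and Cd40lg were at most 2 in any LPS library.

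The early LPS response genes Tnf, Il1b, Cxcl10 and Nfkbia were higher with AAV-Shisa3 past the threshold (4 of 6, where 2.23% of all genes were), and Il6 and Ptgs2 were not (adjusted p = 0.0568 and 0.104), while all 6 were at least 2-fold higher in either LPS library (20.5% of all genes at 2 h and 22.2% at 4 h). The calls of Tnf, Il1b and Nfkbia held in 4 of 10 alternatives and that of Cxcl10 in 6, with adjusted p of up to 0.170 for Tnf and Cxcl10, 0.178 for Il1b and 0.210 for Nfkbia. These genes were chosen as a check of the LPS response. The study reported most genes related to M1 macrophages as higher in the same samples, so these directions are not independent evidence.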
